A study of Mus musculus with 2 samples.

Results

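*Cxcl1*, *Cxcl2* and *Cxcl3* encode small secreted chemokines that draw neutrophils into injured tissue. Neutrophils sense them through the receptor CXCR2, and the proteins bind to sugar chains on vessel walls, where they guide the cells out of the blood. Macrophages switch the genes on within a short time of an inflammatory signal, through the transcription factor NF-κB, and the mRNAs are normally short-lived because decay factors such as tristetraprolin bind AU-rich stretches in their 3′ ends. In damaged muscle these chemokines belong to the first wave of inflammation, which precedes the arrival of monocytes and their maturation into macrophages.

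The 3 genes were chosen by name from the count tables of 2 droplet single-cell libraries. Both libraries came from tibialis anterior muscle on day 4 after injection of 50 µl of 10 µM cardiotoxin, a snake venom toxin from *Naja pallida* that destroys muscle fibres, and both were sorted for living (Zombie aqua-) CD45+ CD11b+ cells without the neutrophil marker Ly6G. One library was from C57BL/6 mice (Wt) and one from C57BL/6:Cx3cr1CRExGata3fl/fl mice (Gata3KO), in which Cre under control of *Cx3cr1* acts on a floxed gene for the transcription factor Gata3. Cre then works only in cells that use or have used *Cx3cr1*, which includes monocytes and macrophages, and the labels do not say how many animals went into a library. The title of the series concerns macrophages, the cytokine IL-33 and the end of inflammation, and the comparison is of the chemokine genes between the genotypes.

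Of the 3 genes, 2 were listed in the Wt table of 13905 genes and all 3 in the Gata3KO table of 13755, and 13289 genes were in both. *Cxcl3* was listed in the Gata3KO table alone. Each table lists only genes with a UMI (unique molecular identifier, 1 counted transcript) in at least 5 barcodes, so no Wt value and no fold are given for *Cxcl3*. The tables held 3290 barcodes and 15392330 UMIs for Wt and 3434 barcodes and 19422237 UMIs for Gata3KO. Barcodes with fewer than 500 UMIs, fewer than 200 genes or over 10% mitochondrial UMIs were set aside, which left 990 Wt cells (30.1% of barcodes, median 5836 UMIs) and 650 Gata3KO cells (18.9%, median 13716 UMIs). The libraries shared 2 barcodes, none of them among the kept cells. No test was run, as each genotype has 1 library: cells of a library are not replicates, and a difference of genotype cannot be told apart from a difference of animals or preparation. All intervals are exact, at the 95% level, and cover counting error only. *Gata3* itself had 4 UMIs in kept Wt cells and 1 in kept Gata3KO cells, too few to check the deletion.

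The 3 genes lie on chromosome 5 (mm10, GENCODE annotation), all on the plus strand, within 119836 bases. Of these, 101640 lie between the end of *Cxcl3* and the start of *Cxcl1*. *Cxcl3* (ENSMUSG00000029379, 4 exons) is at chr5:90786103-90789600, *Cxcl1* (ENSMUSG00000029380, 4 exons) at chr5:90891241-90893115 and *Cxcl2* (ENSMUSG00000058427, 3 exons) at chr5:90903871-90905938, only 10755 bases beyond the end of *Cxcl1*. The stretches below, from the RefSeq promoters on GRCm38.p6, are shown because they hold the sequence features the 3 genes share just before their start sites. Each is 100 bases long, 5′ to 3′ on the plus strand, and the capitals mark matches to GGNNTTTCC, a form of the site that NF-κB binds, on either strand, and to ATAAAAG, a form close to the TATA box. They cover chr5:90891118-90891217 (*Cxcl1*), chr5:90903749-90903848 (*Cxcl2*) and chr5:90785979-90786078 (*Cxcl3*).
Cxcl1: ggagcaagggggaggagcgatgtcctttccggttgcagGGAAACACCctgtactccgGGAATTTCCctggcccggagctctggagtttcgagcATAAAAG
Cxcl2: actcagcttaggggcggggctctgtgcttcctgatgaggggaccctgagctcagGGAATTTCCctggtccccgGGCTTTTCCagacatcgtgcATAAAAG
Cxcl3: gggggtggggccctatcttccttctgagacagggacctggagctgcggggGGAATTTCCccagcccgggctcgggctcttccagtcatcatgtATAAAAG

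Each of the 3 promoters held the NF-κB form. *Cxcl2* had 2 matches, beginning 96 and 77 bases before the RefSeq start site, *Cxcl1* had 1 on its own strand at 70 bases and 1 on the other strand at 89 bases, and *Cxcl3* had 1 at 72 bases. Over all 32851 RefSeq promoters of the same 300 bases, 5.82% held a match. ATAAAAG, a motif chosen after these sequences were read, was in all 3 and in 5.42% of all promoters. TATAAA was in the *Cxcl3* promoter alone, where it overlaps ATAAAAG, and in 13.6% of all promoters. The AP-1 form TGANTCA (7.81% of all promoters) and the antioxidant response core TGANNNNGC (41.3%) had no match in the 3 windows, which says only that these letters are not there.

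**Figure D1:**
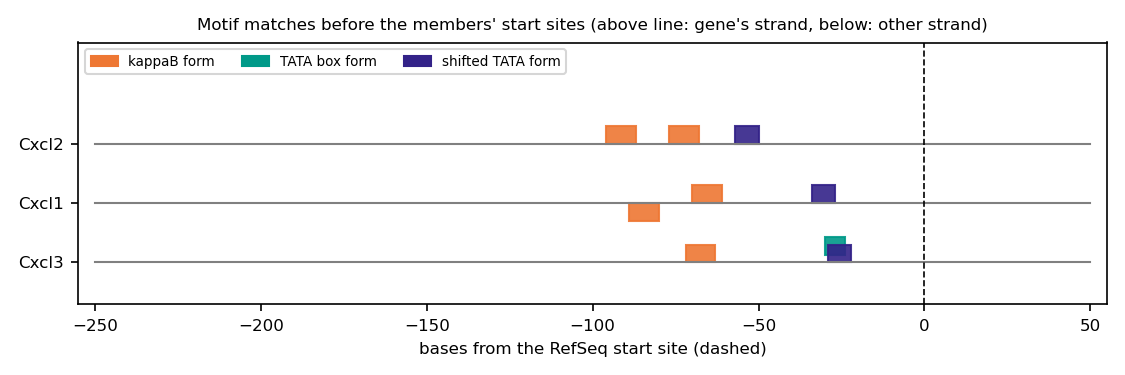
Motif matches before the members' start sites. The horizontal axis is the distance in bases from the RefSeq start site (dashed line), orange boxes are GGNNTTTCC, green TATAAA and violet ATAAAAG, boxes above each gene's line are matches on the gene's strand and boxes below are on the other strand. The NF-κB forms (GGNNTTTCC) lie between 96 and 62 bases before the start of all 3 genes, each ahead of ATAAAAG.

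The mRNAs share the AU-rich element as well. The pentamer ATTTA occurred 7 times in the 592 bases of the *Cxcl1* 3′ untranslated region, 11 times in the 1494 bases of *Cxcl2* and 5 times in the 645 bases of *Cxcl3*, in the protein-coding transcript with the longest such region (GENCODE). That is 11.8, 7.36 and 7.75 per 1000 bases, against a median of 1.49 over 18087 genes whose region has at least 200 bases. Only 0.299% of those genes were at or above *Cxcl1*, 1.98% at or above *Cxcl2* and 1.61% at or above *Cxcl3*.

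The coding sequences were alike, with 87.7% identity between *Cxcl2* and *Cxcl3*, 75.8% between *Cxcl1* and *Cxcl2* and 72.7% between *Cxcl1* and *Cxcl3*. The longest stretch that the *Cxcl2* and *Cxcl3* transcripts have in common is 110 bases, and for either with *Cxcl1* it is 23 bases. In the 3′ untranslated regions, where most reads of a 3′ library fall, no pair shares more than 16 bases. A read inside the 110-base stretch could come from *Cxcl2* or *Cxcl3*. Whether such reads were dropped or assigned was not checked, so the few *Cxcl3* UMIs below are read with caution. *Cxcl1* has no such partner here.

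Summed over monocytes and macrophages, *Cxcl2* stood far above *Cxcl1*, and both sums were higher in the Gata3KO library. This class was made of clusters 0, 2 and 3 of a joint clustering of the kept cells from which the 3 genes were left out. It held 415 Wt cells (4395117 UMIs, median 8641 per cell) and 397 Gata3KO cells (6799618 UMIs, median 17159). In CPM, UMIs scaled to the same total in each group of cells, *Cxcl2* stood at 543 in Wt (2386 UMIs, interval 521 to 565) and 966 in Gata3KO (6571 UMIs, 943 to 990). Its log2 ratio Gata3KO over Wt was 0.83 (0.76 to 0.90). *Cxcl1* stood at 27.3 CPM in Wt (120 UMIs, 22.6 to 32.6) and 88.4 in Gata3KO (601 UMIs, 81.5 to 95.7), a log2 ratio of 1.69 (1.41 to 1.99). Both members listed in both tables were thus higher by at least 1.5-fold with the interval on that side of 0, as were 5.17% of the 5903 genes with at least 20 CPM in 1 library. Another 7.93% were lower by this rule, and the median log2 ratio of all these genes was 0.044 with 1 CPM added.

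Different clusters held most of the class in the 2 libraries. Cluster 2, with the interferon-induced genes *Iigp1*, *Gbp2* and *Ifit2* among its leading genes, had 238 Wt and 37 Gata3KO cells. Cluster 0, with *Gpnmb*, *Fabp5* and *Ctsd* of the lipid-handling macrophage markers among its leading genes, had 118 and 197. Cluster 3 had 59 and 163. Its markers fitted lipid-handling macrophages best, yet none of that list was among its 10 leading genes, which were *Cxcl2*, *Gdf15*, *Ier3*, *Cxcl1*, *Tnf*, *Ccrl2*, *Clec4e*, *Dusp2*, *Hilpda* and *Tnfaip3*. Its mean z-score over the markers was 1.18 for that list and 0.97 for the monocyte list. The monocyte markers summed to 5464 CPM in its Wt cells and 2277 in its Gata3KO cells. It is called cluster 3 here, a cluster with monocyte and macrophage markers led by early-response genes, whose makeup differed between the libraries. Several genes that build these clusters differ between the libraries, so the cell numbers are given as sizes of the groups compared and not as a result.

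The ratio in the class depended on which cells were counted. At a limit of 5% mitochondrial UMIs and at least 1000 UMIs, *Cxcl2* turned slightly lower in Gata3KO (log2 ratio -0.14, interval -0.22 to -0.06) and *Cxcl1* stood at 0.61, over 120 Wt and 280 Gata3KO cells. A cluster of 148 Wt and 27 Gata3KO cells whose best list was the interferon-responding one went unnamed there. Counting it in, an alternative added after seeing the data, gave 0.50 for *Cxcl2* and 1.29 for *Cxcl1*. In all kept cells, where no naming enters, *Cxcl2* went from 327 CPM to 765 (log2 ratio of 1.23, 1.16 to 1.29) and *Cxcl1* from 15.1 to 81.9 (2.43, 2.16 to 2.72), beside 6.75% of 6133 genes that were higher by the rule and 9.65% that were lower. At the stricter limit these stayed positive, at 0.93 and 2.06.

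In both libraries the transcripts came from few cells. The 5 cells with the most *Cxcl2* held 51.1% of the class's *Cxcl2* UMIs in Wt and 23.7% in Gata3KO. The 5 cells with the most *Cxcl1* held 98.3% and 34.6%. Of Wt cells of the class 7 had a *Cxcl1* UMI and 76 a *Cxcl2* UMI, against 57 and 173 in Gata3KO. The highest cell held 58 *Cxcl1* UMIs in Wt and 63 in Gata3KO, and 396 and 438 *Cxcl2* UMIs. Leaving out the highest cell of each library, also chosen after seeing the data, raised the *Cxcl1* ratio of the class from 1.69 to 2.49, since the Wt cell held 48.3% of the Wt UMIs, and moved *Cxcl2* from 0.83 to 0.99.

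Because Gata3KO cells were deeper, shares of cells with a UMI were compared after each cell was thinned to 2000 UMIs. *Cxcl2* was then detected in 12.02% of Wt cells of the class (47 of 391, Clopper-Pearson interval 8.97 to 15.7%) and 28.5% of Gata3KO cells (105 of 368, 24.0 to 33.4%), leaving out 24 and 29 shallower cells. *Cxcl1* was detected in 0.767% (3 of 391, 0.159 to 2.23%) and 7.07% (26 of 368, 4.67 to 10.2%). Without thinning the shares were 18.3% and 43.6% for *Cxcl2*, and 1.69% and 14.4% for *Cxcl1*. Dendritic cell-like clusters, the largest of which (cluster 5) had a median of 8434 UMIs per cell in Wt and 10408 in Gata3KO, served as the background of free RNA. There, thinned, *Cxcl2* was in 2 of 164 Wt cells (1.22%) and 0 of 49 Gata3KO cells, which allows up to 6.12%, and *Cxcl1* in none of either. Unthinned, *Cxcl2* was in 4.44% and 5.45% of dendritic cells and *Cxcl1* in 0 of 180 and 5.45%, with never more than 1 UMI in a cell. The *Cxcl2* shares of the class lay above this background in both libraries. For *Cxcl1* the Wt share did not exceed the 1.83% that 0 of 164 cells allow, and the interval of the Gata3KO share reached below 6.12%, while cells with 58 (Wt) and 63 (Gata3KO) *Cxcl1* UMIs were present in the class.

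Cluster 3 was the main source of both chemokines. It supplied 94.3% of the class's *Cxcl2* UMIs in Wt and 95.7% in Gata3KO, and 97.5% of its *Cxcl1* UMIs in each library. Of all kept cells' UMIs it held 82.8% and 85.1% of *Cxcl2*, and 92.9% and 74.1% of *Cxcl1*. Counting all genes, cluster 3 held 843746 of the class's 4395117 UMIs in Wt and 2955253 of 6799618 in Gata3KO. The class level thus combines the level within each cluster with that cluster's weight, so a class ratio is not a change within a cluster. The part of cluster 3's weight in the class ratios was not tested. Since cluster 3 was built on genes that accompany these chemokines, its high level describes it and is not a test. Among clusters with over 10 *Cxcl2* UMIs, the Wt order was cluster 3 (2668 CPM), unnamed cluster 1 (186), cycling cluster 4 (143), muscle-transcript cluster 8 (83.4), cluster 0 (48.5) and cluster 2 (29.7), and below cluster 3 the counting intervals of each neighbouring pair overlapped. In Gata3KO the order was cluster 3 (2128), cluster 1 (636), cluster 4 (350), cluster 2 (192) and cluster 0 (61.8), with no overlap between neighbours. For *Cxcl1* the Gata3KO order was cluster 3 (198 CPM), collagen-gene cluster 10 (195, from 25 UMIs in 1 of 5 cells), cluster 4 (81.6), cluster 1 (71.4) and cluster 0 (3.99), of which clusters 3 and 10, and 4 and 1, overlapped. In Wt, cluster 3 alone had over 10 *Cxcl1* UMIs. Dendritic cell-like cluster 5 stood at 2.36 and 3.55 CPM of *Cxcl2*, from 2 and 1 UMIs, and had 0 and 2 *Cxcl1* UMIs.

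**Figure D2:**
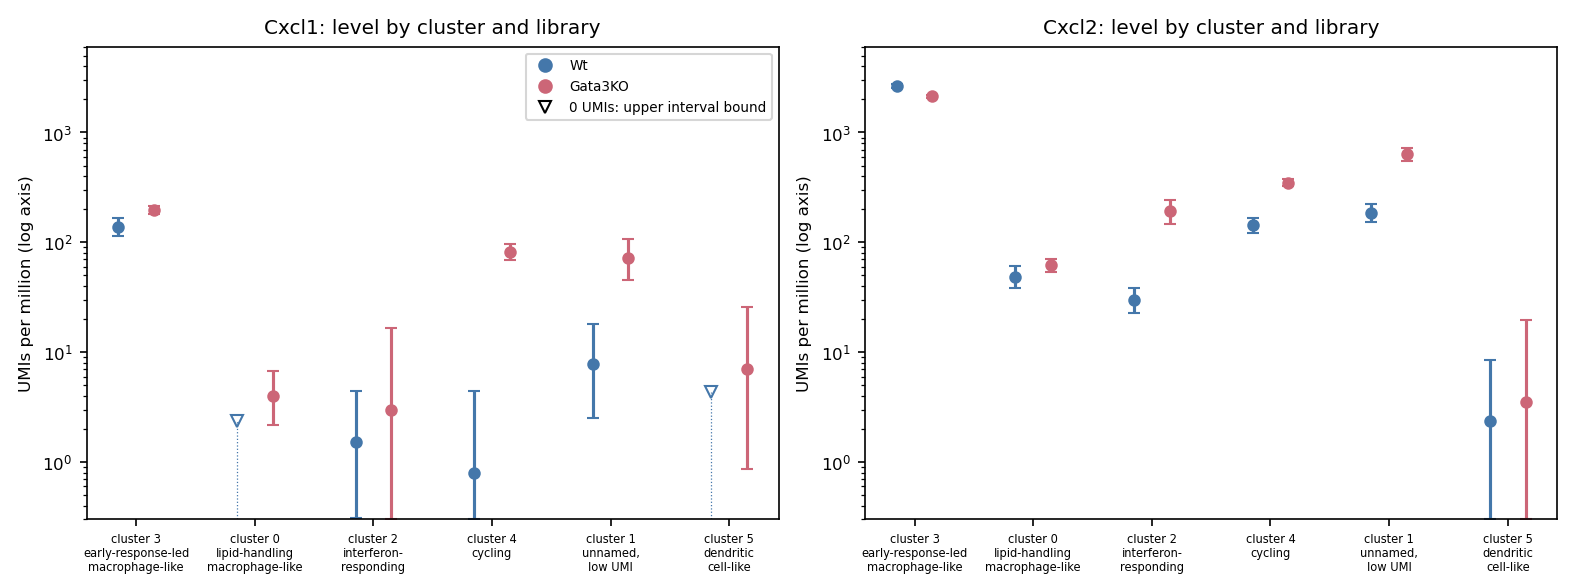
Levels of *Cxcl1* (left) and *Cxcl2* (right) in CPM on a log axis, in 6 clusters, in Wt (blue) and Gata3KO (red). Points are summed UMIs of 1 library with exact Poisson 95% intervals, cut off at the lower edge where they reach below it, and open triangles stand at the upper bound where no UMI was counted. *Cxcl2* was near 2668 and 2128 CPM in cluster 3 and under 650 elsewhere, and *Cxcl1* was above 100 in cluster 3 alone among the clusters shown.

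Within cluster 3 the summed levels of the 2 genes differed between the libraries in opposite directions. *Cxcl2* stood at 2668 CPM in Wt (2251 UMIs, 2559 to 2780) and 2128 in Gata3KO (6290 UMIs, 2076 to 2182), a log2 ratio of -0.33 (-0.40 to -0.26). *Cxcl1* stood at 139 in Wt (117 UMIs, 115 to 166) and 198 in Gata3KO (586 UMIs, 183 to 215), a log2 ratio of 0.52 (0.23 to 0.81). Neither passed 1.5-fold, where 9.73% of 5909 genes were higher and 10.1% lower. The sums weigh cells by their depth. With every cell weighted alike the mean *Cxcl2* level was 2194 CPM in Wt against 2234 in Gata3KO (log2 ratio 0.026), and the *Cxcl1* ratio was 1.30. Without the Wt cell that held the most UMIs of each gene, the ratios were -0.091 for *Cxcl2* and 1.46 for *Cxcl1*.

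The *Cxcl2* counts per cell lay on nearly the same curve in both libraries. In Wt 43 of 59 cells (72.9%, 59.7 to 83.6%) had a *Cxcl2* UMI and in Gata3KO 117 of 163 (71.8%, 64.2 to 78.5%). The lowest cell held 0 UMIs in each library, the median was 10 in Wt and 12 in Gata3KO, the 75th percentile 40 and 42, and the highest 396 and 438. Thinned, the shares were 60.7% and 57.2%. These are counts per cell, and the cells were deeper in Gata3KO (median 17937 UMIs against 11898), so on the CPM scale the median cell was lower there, at 826 against 1329.

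*Cxcl1* was in a smaller share of the Wt cells of cluster 3, by a margin that was narrower in a finer clustering. It had a UMI in 5 of 59 Wt cells (8.47%, 2.81 to 18.7%) and 48 of 163 Gata3KO cells (29.4%, 22.6 to 37.1%), and after thinning in 2 of 56 (3.57%, 0.435 to 12.3%) and 24 of 159 (15.1%, 9.92 to 21.6%). The highest Wt cells held 58 and 32 UMIs, and the highest Gata3KO cells 63 and 43. As 2 cells gave most of the Wt UMIs, the level in CPM was closer between the libraries than the share of cells. In a finer clustering the matching cluster was led by *Cxcl2*, *Arg1* and *Gdf15* (30 Wt and 156 Gata3KO cells). It had 213 CPM of *Cxcl1* in Wt and 198 in Gata3KO, a log2 ratio of -0.11 (-0.40 to 0.19), so the direction of *Cxcl1* in this state changed with the clustering. Unthinned, 5 Wt cells there (16.7%, 5.64 to 34.7%) and 46 Gata3KO cells (29.5%, 22.5 to 37.3%) had a *Cxcl1* UMI, and the intervals overlapped.

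**Figure D3:**
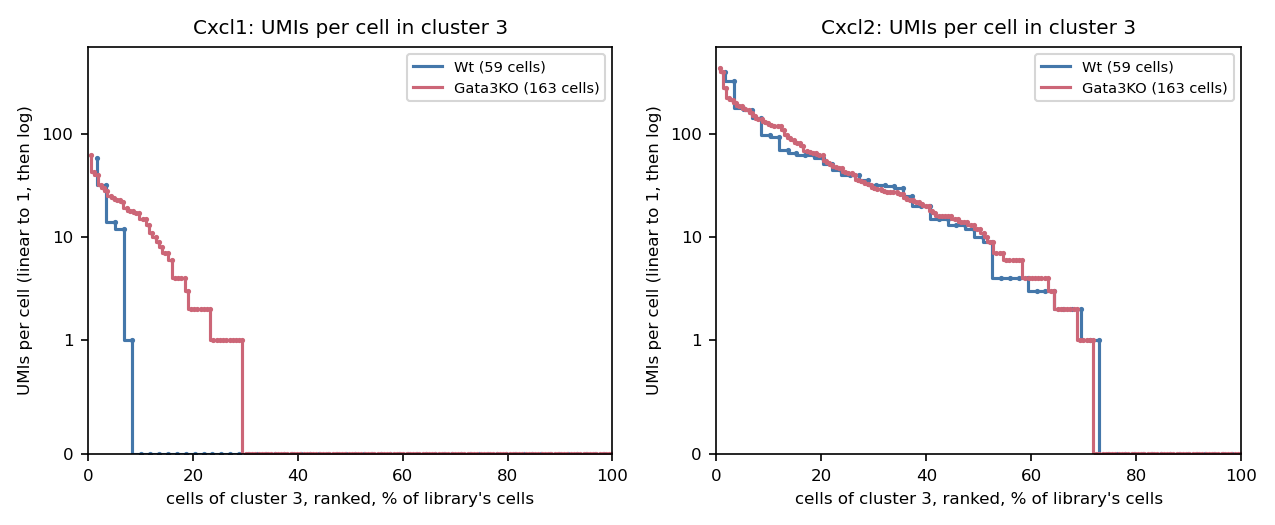
UMIs per cell of *Cxcl1* (left) and *Cxcl2* (right) in cluster 3, with the cells of each library ranked from high to low along the horizontal axis as a percentage of its cells (59 Wt, blue, and 163 Gata3KO, red). The vertical axis is linear up to 1 UMI and logarithmic above. The *Cxcl2* curves run together and reach 0 at 72.9% and 71.8% of cells, and the *Cxcl1* curves reach 0 at 8.47% in Wt and 29.4% in Gata3KO.

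*Cxcl1* made up a larger part of the pair in Gata3KO. Of the UMIs of *Cxcl1* and *Cxcl2* together, *Cxcl1* gave 4.94% in cluster 3 of Wt (117 of 2368, 4.10 to 5.89%) and 8.52% in Gata3KO (586 of 6876, 7.87 to 9.21%). Without the cell highest in *Cxcl1* in each library it gave 3.08% and 7.94%. Over every deposited barcode, with no filter or cluster, it gave 3.56% and 7.82%. This share does not depend on a cell's total depth or on how the libraries were scaled, but UMIs of 1 cell are not independent, so these intervals are too narrow.

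Most cells with *Cxcl1* also held *Cxcl2*. In cluster 3 this was true of 5 of 5 Wt cells with *Cxcl1* and 46 of 48 Gata3KO cells (95.8%), and over all kept cells of 9 of 11 (81.8%) and 64 of 80 (80.0%). The reverse was less common, since in cluster 3 11.6% of the Wt and 39.3% of the Gata3KO cells with *Cxcl2* also had *Cxcl1*. Cells of cluster 3 with *Cxcl1* were rich in *Cxcl2*, with a median of 179 *Cxcl2* UMIs in Wt and 41 in Gata3KO, against 20 and 15 in the other cells with *Cxcl2*. The cells with *Cxcl1* were deeper too, with a median of 25743 UMIs in Wt and 21110 in Gata3KO, against 10581 and 17176, and the part of depth in this was not tested.

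Outside cluster 3 the levels were low, and the libraries differed from state to state. In the class without cluster 3, *Cxcl2* went from 38.0 CPM in Wt (135 UMIs in 33 of 356 cells) to 73.1 in Gata3KO (281 UMIs in 56 of 234 cells), a log2 ratio of 0.94 (0.64 to 1.25). In lipid-handling cluster 0 it was 48.5 and 61.8 CPM, a ratio of 0.35 whose interval (-0.033 to 0.75) reaches 0, so it did not pass the rule by which 3.67% of genes were higher there and 5.41% lower. In interferon-responding cluster 2 it was 29.7 and 192 CPM, a ratio of 2.69 (2.16 to 3.23), but in Gata3KO 9 of 37 cells held the 64 UMIs and 5 of them held 93.8%. *Cxcl1* had 3 Wt and 15 Gata3KO UMIs in the class outside cluster 3. In cluster 0 it had no UMI in 118 Wt cells and 14 in 197 Gata3KO cells, which is at least 2.08-fold higher against a floor of 3 counts in Wt.

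Finer clusters showed *Cxcl2* lower in Gata3KO in some states and higher in others. They divide the same kept cells again, so they overlap the clusters above, cluster 3 among them, and are not separate results. In the monocyte-like cluster with *Hp* and *Vcan* among its leading genes (37 Wt and 20 Gata3KO cells) it went from 948 CPM to 208 (log2 ratio -2.19, -2.66 to -1.75). There the 5 highest cells held 86.7% of the Wt UMIs and 100% of the Gata3KO UMIs. The highest Wt cell, with 171 *Cxcl2* UMIs, is also in cluster 3. Clustering at the stricter limit gave a monocyte-like cluster led by *Hp* (34 Wt and 17 Gata3KO cells) with nearly equal *Cxcl2*, at 1414 and 1365 CPM. In the cluster led by *Npl*, *Lpcat2* and *Hebp1* (90 and 101 cells) the summed level went from 67.0 to 17.5 (-1.94). Here 5 cells held 73 of the 81 Wt UMIs, and 5 held 18 of the 33 Gata3KO UMIs. The share of cells with a *Cxcl2* UMI went the other way, at 14.4% in Wt and 19.8% in Gata3KO, not thinned. *Cxcl2* was higher in Gata3KO in the resident-like cluster led by *Dab2*, *Mrc1* and *Cbr2* (35 and 79 cells), from 77.9 to 282 (1.86, 1.41 to 2.34), and in the *Mmp12* cluster (24 and 76 cells), from 39.1 to 120 (1.61, 0.83 to 2.51). Single cells carried much of both: in the resident-like cluster 1 cell held 27 of the 44 Wt UMIs and another 133 of the 382 Gata3KO UMIs, and in the *Mmp12* cluster 13 of 14 and 79 of 183. *Cxcl1* in the resident-like cluster had no Wt UMI and 52 Gata3KO UMIs in 7 cells, at least 7.24-fold higher against the floor. The differences between these states were not tested.

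Cycling cluster 4 and the low-UMI cluster were also higher in Gata3KO, but cluster 4 shares cells with the resident-like finer cluster. The Gata3KO cell with 133 *Cxcl2* UMIs in that finer cluster is in cluster 4, so the 2 are not separate results. In cycling cluster 4 *Cxcl2* went from 143 to 350 CPM (1.29, 1.05 to 1.54), with 127 of the 181 Wt UMIs in 1 cell. *Cxcl1* had 1 UMI there in 61 Wt cells and 139 UMIs in 10 of 87 Gata3KO cells, one of which held 71, so the log2 ratio of 6.69 has an interval that starts at 4.19 and rests on a single Wt UMI. In unnamed cluster 1 (median 2634 UMIs) *Cxcl2* went from 186 to 636 CPM (1.78) and *Cxcl1* from 5 to 23 UMIs (3.19, 1.77 to 4.94).

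The barcodes above the mitochondrial limit, left out so far, also had higher levels in Gata3KO. The median mitochondrial share was 15.7% in Wt and 21.8% in Gata3KO, so mitochondrial content differed between the libraries, and the comparison was made within bands of it. From over 10 to 20%, *Cxcl2* went from 174 to 566 CPM (1.70, 1.57 to 1.83) over 1050 and 849 barcodes. From over 20 to 40%, it went from 138 to 604 (2.13, 1.98 to 2.29) over 1039 and 1726. Above 40%, it went from 64.9 to 223 (1.78, 1.24 to 2.35) over 211 and 209. *Cxcl1* had 12 Wt and 134 Gata3KO UMIs in the first band, 2 and 158 in the next and 0 and 12 above 40%. The log2 ratio of *Cxcl2* was thus larger in each of these bands than in the kept cells.

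**Figure D4:**
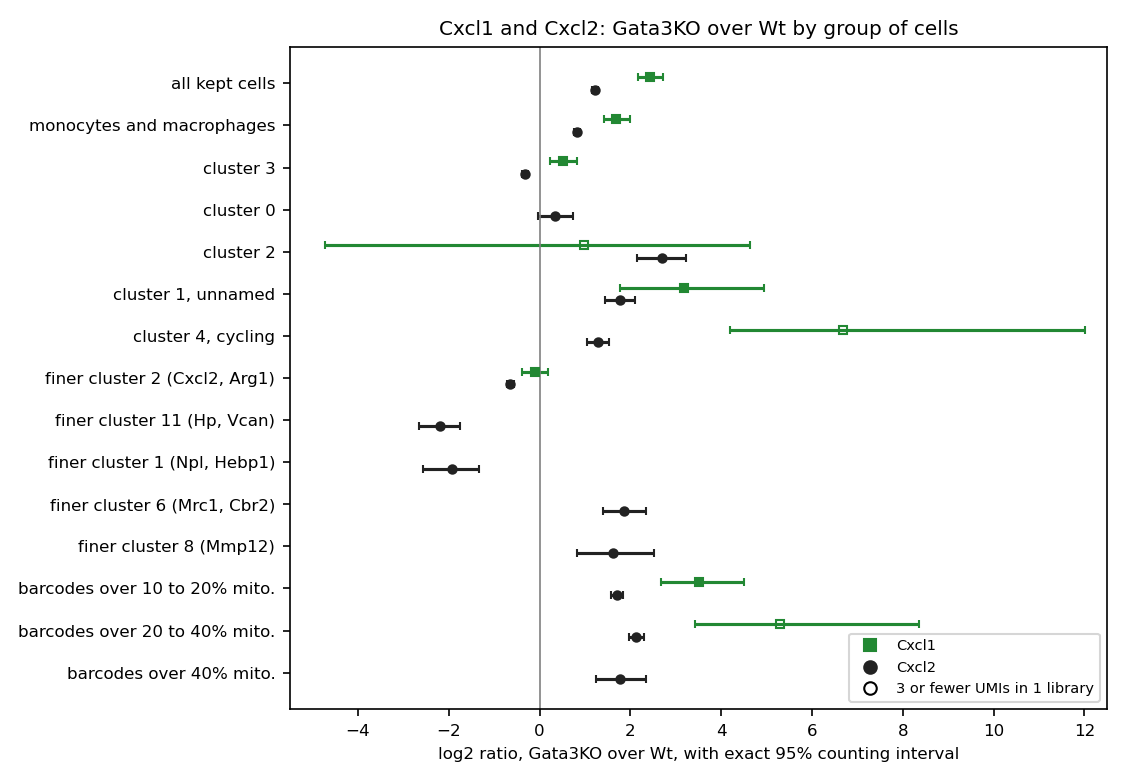
Log2 ratio Gata3KO over Wt of *Cxcl1* (green squares) and *Cxcl2* (black circles) by group of cells, with exact 95% counting intervals. Open symbols have 3 or fewer UMIs in 1 library, and a gene with no UMI in 1 library is not drawn. *Cxcl2* lies left of 0 in cluster 3 and finer clusters 1, 2 and 11, and right of 0 in the other groups drawn. The finer clusters divide the same kept cells again and overlap the other clusters drawn.

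*Cxcl3* was close to the limit of detection. The Gata3KO table held 7 *Cxcl3* UMIs in 5 of 3434 barcodes (0.146%, 0.0473 to 0.339%), at 2, 2, 1, 1 and 1 UMIs, or 0.360 CPM (0.145 to 0.743). Of the 5 barcodes 3 were kept, 2 in cluster 3 and 1 in cycling cluster 4. All 5 also held *Cxcl2*, with 1, 15, 22, 133 and 42 UMIs, and 3 held *Cxcl1*.

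The partners of these chemokines were mostly out of view in sorted Ly6G- cells. *Cxcr2*, their receptor on neutrophils, had 10 UMIs over all Wt barcodes and 30 over all Gata3KO barcodes, and *Cxcr1* was in neither table. *Ppbp*, another CXCR2 ligand, had 8 and 36 UMIs, and *Cxcl5* and *Cxcl15* were in neither table. Of 18 neutrophil markers 9 were in both tables. In cluster 3 they summed to 104 CPM in Wt and 112 in Gata3KO, of which *Csf3r*, also used by monocytes, gave 65.2 and 55.5. *S100a8* stood at 5.93 and 14.2 CPM, *S100a9* had 1 UMI in Wt and 0 in Gata3KO, and *Ly6g* was in neither table. *Mmp8*, a neutrophil collagenase, stood at 19.0 and 37.2, with 77 of its 110 Gata3KO UMIs in cells that held *Cxcl1* or *Cxcl2*. Only 44 of the cluster's 163 Gata3KO cells held neither chemokine, so most UMIs of an evenly spread gene would fall in such cells too. The part of these transcripts in the chemokine values was not tested.

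The wider pathway was read from 97 genes in 10 lists, of which 76 had at least 20 CPM in 1 library. In monocytes and macrophages 17 of the 76 were higher in Gata3KO and 7 lower by the 1.5-fold rule, against 5.17% and 7.93% of all genes. Most of the higher genes were in 2 lists. Of 16 AP-1, early-response and heat shock genes 9 were higher and none lower, with a median log2 ratio of 0.62. *Ier3*, an early-response survival gene, went from 214 to 520 CPM (1.28), the phosphatase gene *Dusp1* from 265 to 559 (1.08) and *Fosb*, an AP-1 subunit, from 63.7 to 135 (1.08). Of 10 hypoxia and Nrf2 stress genes 6 were higher and none lower, led by *Hmox1*, the haem-degrading enzyme, at 120 and 674 CPM (2.49), and with *Hilpda*, a lipid droplet gene induced by hypoxia, at 24.3 and 61.0 (1.33).

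Few genes of the upstream part of the pathway passed the rule, by which 5.17% of all genes in these cells were higher and 7.93% lower. At those shares lists this short would hold few or none, so the counts are a description. Of 2 inducing cytokines *Il1b* was higher, from 152 to 273 CPM (0.84), and *Tnf* stood at 125 and 153 (0.30). None of 13 receptors and adaptors passed the rule in either direction, among them *Tlr2* (91.7 and 128 CPM, 0.48) and *Cd14* (205 and 244, 0.25). None of 5 NF-κB subunits passed it, with a median of -0.26. Of 11 NF-κB inhibitors and feedback genes 2 were lower, *Nfkbie* (50.1 and 25.9 CPM, -0.95) and *Tnip3* (51.6 and 23.1, -1.16). *Nfkbia*, the inhibitor that NF-κB itself induces, was at 549 and 810 (0.56). None of 9 mRNA decay factors passed it, and *Zfp36*, which encodes tristetraprolin, was at 321 and 438 (0.45).

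More of the other chemokines were lower than higher. Of 10, *Ccl7*, a monocyte attractant, was higher (29.1 and 68.8 CPM, 1.24) and 5 were lower: *Cxcl9* (-4.57), *Ccl5* (-4.29), *Cxcl10* (-2.93), *Ccl12* (-2.06) and *Ccl9* (-1.13). *Cxcl9* and *Cxcl10* encode interferon-induced attractants of T cells. *Ccl2* (173 and 156 CPM, -0.15), *Ccl3* (185 and 267, 0.53) and *Ccl4* (414 and 332, -0.32) passed in neither direction.

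Within cluster 3 the balance of these lists was different from that in the class. Of 76 genes measured there, 5 were higher and 22 lower, against 9.73% and 10.1% of all genes. The early-response list had 1 gene higher and 4 lower of 16, with a median of -0.19. *Tnf* was lower (581 and 329 CPM, -0.82), as were *Ccl2* (600 and 263, -1.19) and *Ccl4* (1633 and 643, -1.34), and *Hmox1* (187 and 1345, 2.84) was among the 5 higher. Other markers also differed between the libraries in this cluster: the 14 monocyte markers summed to 5464 CPM in Wt and 2277 in Gata3KO with none at 0, and the 14 resident-like markers measured summed to 5805 and 11383, with *Timd4* at 0 in Wt. The part of this makeup in the *Cxcl1* and *Cxcl2* values was not tested.

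**Figure D5:**
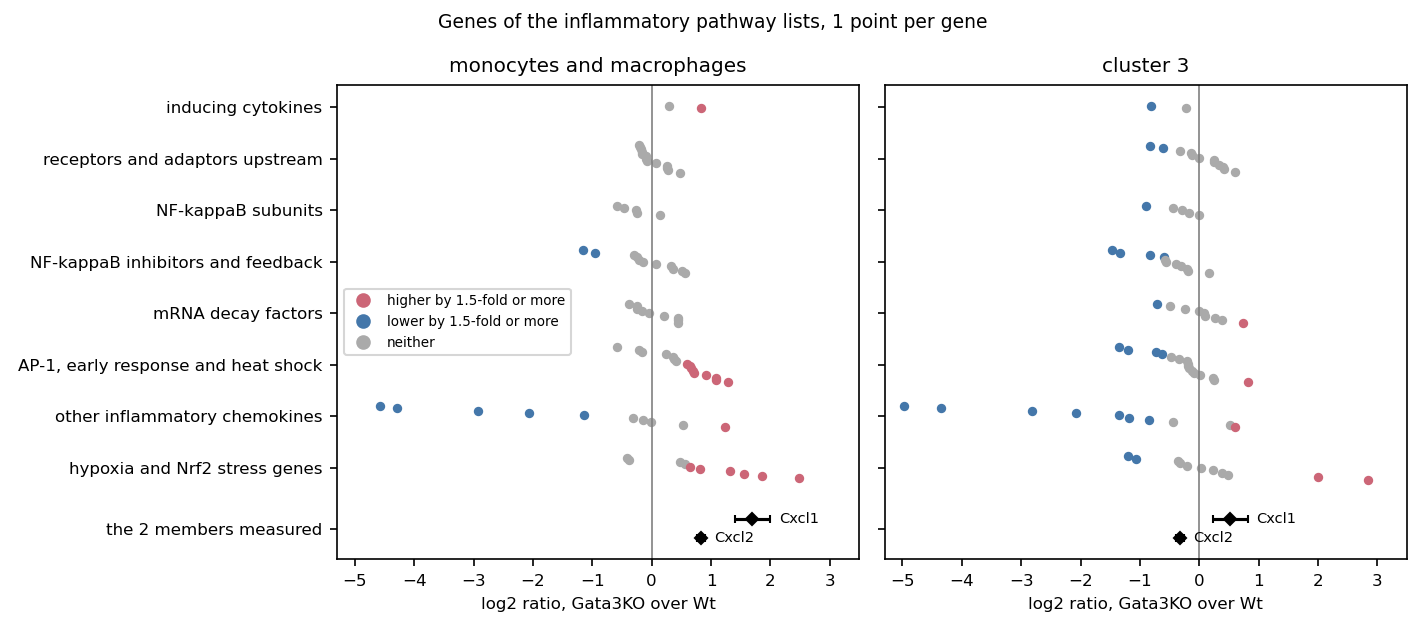
Log2 ratio Gata3KO over Wt of each gene with at least 20 CPM in 1 library, by list, in monocytes and macrophages (left) and cluster 3 (right). Each point is 1 gene, red if higher and blue if lower by 1.5-fold or more with the interval on the same side of 0, grey otherwise, and diamonds give *Cxcl1* and *Cxcl2* with their intervals. In the class 17 points are red and 7 blue, and in cluster 3 5 are red and 22 blue.

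The genes whose levels across clusters most resembled those of the members were ranked by likeness, which was Pearson's r of log2(CPM + 10) over 15 groups, each a cluster of 1 library with at least 20 cells, among 5317 genes with at least 50 CPM in 1 group. The groups share libraries and differ in depth, so r is a description. Closest to *Cxcl2* were *Ptp4a1* (0.91), *Ccl2* (0.90), *Cebpb* (0.89), *Cd14* (0.89), *Zfand5* (0.88) and *Slc3a2* (0.87). Closest to *Cxcl1* were *Ptgs2*, which encodes the prostaglandin enzyme COX-2 (0.92), *Rgcc* (0.91), *Sde2* (0.86), *Cxcl2* (0.85), *Cd44* (0.85) and *Eif5* (0.84). Over single thinned cells of the class most of these were weak: *Ptgs2* with *Cxcl1* gave -0.02 in Wt and 0.11 in Gata3KO, while *Cxcl1* with *Cxcl2* gave 0.39 over 391 Wt cells and 0.53 over 368 Gata3KO cells.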

How the data were processed

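The authors deposited 1 table of UMI counts per gene and barcode for each library, as whole numbers that are not normalized. The submitters' processing notes name the mm10 build and the tools R 3.6.1, Seurat 3.0.2 and Cell Ranger 3.0.1, and settings and cell filters were not given in the sources used here. Members, lists and tests were chosen with earlier results of these data known.

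The kept cells were clustered jointly and unintegrated, on 2000 variable genes without the 3 members, 2 of which were among them (scanpy 1.11.5, 30 principal components, 15 neighbours, Leiden 0.6, finer 1.2, leidenalg 0.10.2). Clusters took the best of 16 marker lists. After the data were seen, a mean z-score under 0.25, fewer than 3 markers at 100 CPM, leading genes of another class or very low UMIs left a cluster unnamed. UMIs were summed per library and group and divided by the summed total (CPM). Ratios have exact conditional binomial intervals, sums exact Poisson intervals and shares Clopper-Pearson intervals (scipy 1.17.1). The ratio and thinning steps were tested on simulated data. Named genes were the members, the 6 genes most like each, and list genes past 1.5-fold or central to their list. Scrublet called 2 of 990 Wt and 8 of 650 Gata3KO cells doublets, which were left in. Protein sequences were not used here; coding sequences were compared in their place.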

Additional observations from a re-analysis of the deposited data

Results flagged for a closer look

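*Cxcl2* differed between the libraries in opposite directions in 2 clusters of the same class: its log2 ratio Gata3KO over Wt was 2.69 in interferon-responding cluster 2 and -0.33 in cluster 3. Finer clusters split likewise, with 1.86 in the resident-like cluster led by *Dab2* and *Mrc1* and -2.19 in the monocyte-like cluster led by *Hp*. In the latter 1 Wt cell held 171 of the 377 UMIs, and that cell is also in cluster 3. The finer clusters divide the same kept cells again, so these splits are not separate results. The differences between clusters were not tested, and each cluster is 1 sum per library.

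Barcodes above 10% mitochondrial UMIs, which the comparisons of kept cells do not use, also held the 2 chemokines. The *Cxcl2* level there was 151 CPM (Wt) and 566 CPM (Gata3KO), and the *Cxcl1* level was 1.98 and 31.1.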

How the results depend on the processing

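No paired analysis was possible because each genotype has 1 library. The log2 ratio of *Cxcl1* stayed positive under all 17 alternatives in monocytes and macrophages and all 10 in all kept cells, and that of *Cxcl2* under 16 of 17 and all 10. At 1000 UMIs and 5% mitochondrial UMIs the class gave 0.61 (*Cxcl1*) and -0.14 (*Cxcl2*), or 1.29 and 0.50 with the unnamed interferon-led cluster, and all kept cells gave 2.06 and 0.93. With every cell weighted alike the class gave 2.81 and 1.48 and all kept cells 3.40 and 1.89; thinned to 2000 UMIs, 2.51 and 1.43, and 2.95 and 1.78; without the 5% of cells with the most UMIs of the members, a choice made on the compared genes themselves, 5.46 and 2.43, and 5.35 and 4.05; without the single highest cell of each library, 2.49 and 0.99, and 3.19 and 1.37. *Cxcl1* in the class was 2.03 with cycling cells and 2.21 without cluster 3, where *Cxcl2* was 0.94. The unweighted mean of the log2 ratios of clusters 0, 2 and 3, with 1 CPM added, was 1.17 for *Cxcl1* and 0.89 for *Cxcl2*. That mean counts each cluster alike however few UMIs of the gene it held. It is therefore not the class ratio at equal cluster shares. *Cxcl2* was 1.02 in the class and 1.35 in all kept cells at a mitochondrial limit of 20%, and 1.09 and 1.43 over every barcode. In cluster 3, *Cxcl2* was -0.18 with the members left among the variable genes, -0.46 and -0.64 in the matching cluster at Leiden 0.3 and 1.2, -0.25 at the 20% limit, -0.49 over every barcode, 0.026 with cells weighted alike, -0.18 without each library's highest cell and -0.091 without that of Wt; *Cxcl1* was -0.11 at Leiden 1.2, 0.082 over every barcode, 1.30 with cells weighted alike, 1.31 without each library's highest cell and 1.46 without that of Wt. Unthinned, shares differed by 12.7 (*Cxcl1*) and 25.3 (*Cxcl2*) percentage points. At 100 CPM, 4 pathway genes were lower. With the members among the variable genes, the cluster with the highest level held 78.3% of kept *Cxcl1* and 88.0% of kept *Cxcl2* UMIs in Gata3KO. The alternatives without cluster 3, with the unnamed cluster, without the highest cell and within cluster 3, other than members left in, were chosen after seeing the data. The causes of these shifts were not tested.

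With 120 *Cxcl1* UMIs in 7 Wt cells of the class and 7 *Cxcl3* UMIs in Gata3KO, depth limits what can be said of both genes. In the class and in all kept cells, leaving out doublets called by Scrublet, median-of-ratios scaling and totals without mitochondrial and ribosomal protein genes did not change a direction; these were not run for single clusters, shares or pathway counts.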
